A study of Mus musculus with 6 samples.

Results

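The fibroblast growth factor (FGF) receptors *Fgfr1*, *Fgfr2*, *Fgfr3* and *Fgfr4* and the feedback genes *Spry1*, *Spry2*, *Spry4*, *Dusp6*, *Etv4* and *Etv5* were followed in Digits in a Dish (DID) cultures. These 10 genes were taken by symbol from the 32286 genes counted in each library, and all 10 were found in all 6 libraries. Cells for the cultures came from distal forelimb mesenchyme of CD-1 mouse embryos at E11.5, the part of the early limb bud that gives rise to the digits. Single-cell RNA sequencing was done at Day 2, Day 7 and Day 10 of culture, with 2 replicates (A and B) a day that the study describes as independent cultures. No genetic change or added drug is given for any group, and all were grown in the same serum-containing medium with no other growth factor. The tissue was pooled over embryos, was dissociated before plating and had lost the surrounding limb bud, and a day with 2 cultures measures the spread between cultures and not between animals.

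FGF ligands bind receptor tyrosine kinases on the cell surface, which pass the signal on to the MAP kinase ERK and other pathways. ERK activity raises the transcription of genes that limit the same pathway: the Sprouty proteins (*Spry1*, *Spry2*, *Spry4*) act between receptor and ERK, *Dusp6* encodes a phosphatase that removes the activating phosphates from ERK, and the ETS factors *Etv4* and *Etv5* are transcription factors that are used with them as markers of FGF signalling. In the limb bud, *Fgfr1* is used throughout the mesenchyme, *Fgfr2* marks condensing cartilage as well as the limb ectoderm, *Fgfr3* marks proliferating chondrocytes, where it restrains growth of the cartilage, and *Fgfr4* is known from developing muscle.

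Because ETS factors bind DNA at GGAA, the 250 bases before the annotated start of *Dusp6*, *Spry1* and *Spry2*, the feedback genes with the clearest changes below for which a window of the genome could be shown, were read from the RefSeq promoter table of build GRCm38.p6. The letters are written 5′ to 3′ on the strand of the gene, and capitals mark GGAA or its complement TTCC.
Dusp6, chr10:99262981-99263230, plus strand: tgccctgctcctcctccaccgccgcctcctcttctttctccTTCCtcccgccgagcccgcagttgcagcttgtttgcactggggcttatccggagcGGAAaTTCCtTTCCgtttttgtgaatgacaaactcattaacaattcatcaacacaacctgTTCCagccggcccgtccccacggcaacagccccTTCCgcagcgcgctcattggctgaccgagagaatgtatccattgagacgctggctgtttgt
Spry1, chr3:37639697-37639946, plus strand: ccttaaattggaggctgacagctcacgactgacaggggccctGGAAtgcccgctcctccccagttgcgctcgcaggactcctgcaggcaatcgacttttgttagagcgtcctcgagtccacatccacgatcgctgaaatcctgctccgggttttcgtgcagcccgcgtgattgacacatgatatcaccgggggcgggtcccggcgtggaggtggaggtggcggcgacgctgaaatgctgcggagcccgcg
Spry2, chr14:105896820-105897069, minus strand: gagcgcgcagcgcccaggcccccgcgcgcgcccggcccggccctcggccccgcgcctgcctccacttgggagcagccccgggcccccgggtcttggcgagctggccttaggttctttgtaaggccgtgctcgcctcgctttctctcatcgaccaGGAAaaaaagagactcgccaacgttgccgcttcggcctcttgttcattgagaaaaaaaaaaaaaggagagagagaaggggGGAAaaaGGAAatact
The *Dusp6* window held 6 such matches, the *Spry2* window 3 and the *Spry1* window 1. A match is common in windows of this length, since 93.4% of the 32851 windows in the table held at least 1, with a median of 3. The longer core CGGAAG (or CTTCCG), searched on both strands and containing the short one, was in 13.6% of all windows and was found 1 time in *Dusp6* and in neither of the others. These matches describe letters and were not tested for binding. RefSeq windows were found for 7 of the 9 genes looked up, and not for *Fgfr1* and *Etv4*.

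After filtering, the libraries held 9448 to 16486 cells and 178022112 to 260245417 UMIs (unique molecular identifiers, each standing for 1 captured transcript). Day 2 replicate B stood apart by depth, with a median of 3871 UMIs per cell against 18587 in Day 2 replicate A and 8062 to 24197 in the other 4. Pairs of libraries shared 24 to 67 cell barcodes, at most 0.543% of a library's cells. No doublets were removed. The markers of the labelled tissue were present: the summed chondrocyte markers were at 2653 and 2941 counts per 1000000 UMIs (CPM) at Day 2, 23142 and 21465 at Day 7, then 13462 and 12507 at Day 10. Myocyte markers summed to 569 and 440 CPM at Day 2, 53.9 and 25.4 at Day 7, then 3.40 and 8.89 at Day 10, and those of limb ectoderm to 106 and 74.2 CPM at Day 2, 39.7 and 35.7 at Day 7, then 30.6 and 38.8 at Day 10. The part of these shifts in the mix of cells in the whole-culture values below was not tested, and in such sums fewer cells of a type and less RNA per cell cannot be told apart.

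The 4 receptors were first compared in whole cultures, with the UMIs of all kept cells summed per library. *Fgfr3* was the receptor with the largest change from Day 2 to Day 7. Its level, in CPM scaled by TMM (trimmed mean of M-values, a correction for composition), was 15.0 in replicate A and 18.4 in replicate B at Day 2, 120.5 and 108 at Day 7, then 90.2 and 79.7 at Day 10. The days did not overlap, and both Day 7 libraries were the highest. Between Day 2 and Day 7 *Fgfr3* rose 6.84-fold (log2 fold change 2.77 ± 0.11 SE, adjusted p = 9.19e-08 in edgeR's quasi-likelihood test with Benjamini-Hochberg adjustment over 18987 genes, which is the test behind every adjusted p here). Between Day 7 and Day 10 it fell by 0.43 on the log2 scale (SE 0.10, adjusted p = 0.00773). The fall rests on few libraries: without Day 7 replicate A the change was -0.35 and without Day 10 replicate B it was -0.33, neither past the threshold. It was -0.17 (adjusted p = 0.212) when each cell was thinned to 3000 UMIs and shallower cells, 6.84% to 41.4% of a library, were left out.

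*Fgfr1*, the receptor with the highest level at Day 2, was at 96.6 and 96.2 CPM at Day 2, 103 and 98.8 at Day 7, then 89.5 and 85.1 at Day 10. *Fgfr2* was at 71.2 and 71.8, 76.8 and 74.0, and 80.4 and 75.9 CPM in the same order. Both genes kept within a narrow band while *Fgfr3* moved severalfold. The log2 fold change in the first step was 0.06 for *Fgfr1* (95% interval -0.05 to 0.18, adjusted p = 0.288) and 0.08 for *Fgfr2* (-0.04 to 0.19, adjusted p = 0.203). With thinned cells these became 0.35 and 0.37, and both passed. *Fgfr1* fell by 0.21 between Day 7 and Day 10 (adjusted p = 0.00861), a call lost without Day 7 replicate A (-0.18) or Day 10 replicate B (-0.16). *Fgfr2* did not pass in that step (0.05, interval -0.06 to 0.17, adjusted p = 0.416).

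*Fgfr4* was the least abundant receptor. Its level was 3.89 and 4.66 CPM at Day 2, 8.66 and 8.66 at Day 7, then 3.34 and 2.89 at Day 10, so that Day 7 stood above both other days without overlap. It rose 2.03-fold from Day 2 to Day 7 (log2 1.02 ± 0.10, adjusted p = 2.35e-05) and fell by 1.47 from Day 7 to Day 10 (SE 0.10, adjusted p = 2.40e-05). Between Day 2 and Day 10 it fell by 0.45 (adjusted p = 0.00353), a call lost with thinned cells (-0.14).

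**Figure D1:**
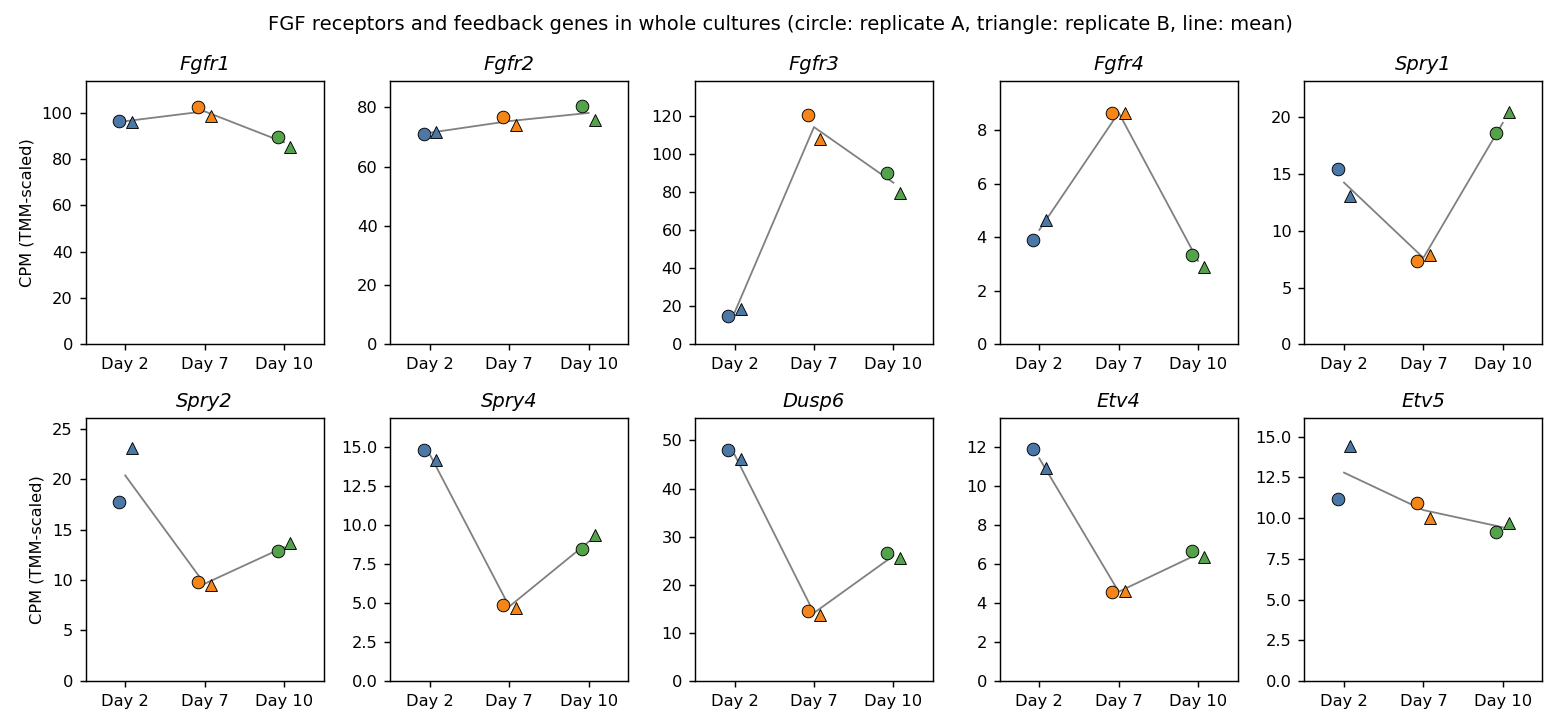
Level of each of the 10 genes in each library (vertical axes, CPM scaled by TMM) against day of culture, with replicate A as circles, replicate B as triangles and a line through the mean of each day. *Fgfr3* rises from 15.0 and 18.4 CPM at Day 2 to 120.5 and 108 at Day 7, while *Dusp6* goes from 48.0 and 46.0 to 14.5 and 13.8.

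The balance among receptors was then taken as the share of each in the summed UMIs of *Fgfr1* to *Fgfr4*. UMIs were counted at the 3′ end of transcripts, so these shares do not scale with transcript length. At Day 2 *Fgfr1* held 51.8% and 50.4% of receptor UMIs in replicates A and B, *Fgfr2* 38.1% and 37.6%, *Fgfr3* 8.03% and 9.64%, and *Fgfr4* 2.08% and 2.44%. At Day 7 *Fgfr3* held 39.05% and 37.3%, ahead of *Fgfr1* at 33.2% and 34.15% and *Fgfr2* at 24.9% and 25.6%. At Day 10 the first 3 receptors were close to each other, with *Fgfr1* at 34.0% and 34.9%, *Fgfr2* at 30.5% and 31.2%, and *Fgfr3* at 34.2% and 32.7%. *Fgfr1* was thus the leading receptor at Day 2 and *Fgfr3* at Day 7 in both libraries, and at Day 10 *Fgfr3* led in replicate A and *Fgfr1* in replicate B. The lead of *Fgfr3* at Day 7 was lost with cells thinned to 3000 UMIs, where *Fgfr1* held 35.7% and 36.99% and *Fgfr3* 34.0% and 30.5%. The shares were not tested.

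**Figure D2:**
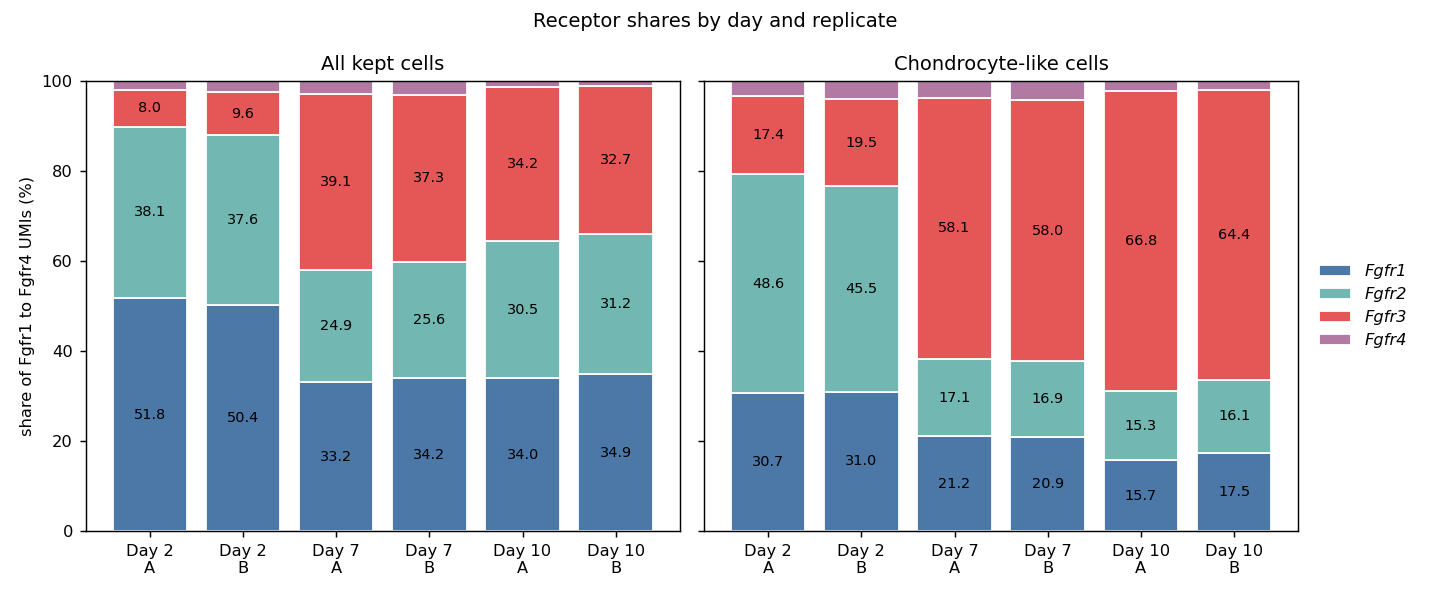
Share of each receptor in the summed UMIs of *Fgfr1* to *Fgfr4* (stacked bars, percent), per library, in all kept cells on the left and in chondrocyte-like cells on the right. The *Fgfr3* share goes from 8.03% and 9.64% at Day 2 to 39.05% and 37.3% at Day 7 in whole cultures, and reaches 66.8% and 64.4% in chondrocyte-like cells at Day 10.

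The feedback genes fell from Day 2 to Day 7 while *Fgfr3* rose, and 5 of the 6 then rose from Day 7 to Day 10. *Dusp6* was at 48.0 and 46.0 CPM at Day 2, 14.5 and 13.8 at Day 7, then 26.5 and 25.5 at Day 10, and *Spry4* at 14.9 and 14.2, 4.87 and 4.69, and 8.47 and 9.41. Day 2 was the highest and Day 7 the lowest day for both, without overlap. *Dusp6* fell to 0.301 of its Day 2 level at Day 7 (log2 -1.73 ± 0.05, adjusted p = 2.47e-08) and *Spry4* to 0.329 (log2 -1.61 ± 0.07, adjusted p = 1.61e-07). From Day 7 to Day 10 both rose, *Dusp6* by 0.88 (SE 0.05, adjusted p = 1.47e-05) and *Spry4* by 0.90 (SE 0.07, adjusted p = 3.71e-05), and both were below Day 2 at Day 10 by 0.85 and 0.70 on the log2 scale, past the threshold.

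*Etv4* followed the same order, with 11.9 and 10.9 CPM at Day 2, 4.56 and 4.59 at Day 7, then 6.67 and 6.36 at Day 10. It fell by 1.32 (SE 0.07, adjusted p = 4.08e-07) and then rose by 0.51 (SE 0.07, adjusted p = 0.000473). *Spry2* was at 17.7 and 23.0, 9.76 and 9.49, and 12.9 and 13.6 CPM. It fell by 1.08 (SE 0.11, adjusted p = 2.61e-05) and rose by 0.46 (SE 0.11, adjusted p = 0.00785). With thinned cells neither later rise passed, at 0.37 for *Etv4* (adjusted p = 0.0809) and 0.49 for *Spry2* (adjusted p = 0.0511).

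*Spry1* differed from the other Sprouty genes in ending above its start. It was at 15.4 and 13.1 CPM at Day 2, 7.37 and 7.87 at Day 7, then 18.6 and 20.4 at Day 10, with no overlap between days. It fell by 0.90 (SE 0.09, adjusted p = 1.97e-05), rose by 1.36 (SE 0.09, adjusted p = 1.79e-05), and was higher at Day 10 than at Day 2 by 0.45 (adjusted p = 0.00104). *Etv5* moved least, with 11.2 and 14.4, 10.95 and 10.03, and 9.17 and 9.71 CPM. Its fall from Day 2 to Day 7 was 0.28 on the log2 scale (SE 0.11, adjusted p = 0.0452), and -0.21 (adjusted p = 0.108) with all deposited barcodes. Without Day 2 replicate B this change was -0.09, and it was also past the threshold no longer without Day 7 replicate A (-0.34), Day 7 replicate B (-0.21), Day 10 replicate A (-0.27) or Day 10 replicate B (-0.28), while it passed at -0.45 without Day 2 replicate A. Its change from Day 7 to Day 10 did not pass (-0.15, interval -0.41 to 0.10, adjusted p = 0.274). From Day 2 to Day 10 it fell by 0.44 (adjusted p = 0.00569), with -0.24 when Day 2 replicate B was left out.

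Of the 10 genes, 2 rose and 6 fell between Day 2 and Day 7, beside 35.7% and 34.6% of all 18987 genes tested. Between Day 7 and Day 10, 5 rose (5 of the 6 feedback genes) and 3 fell (*Fgfr1*, *Fgfr3* and *Fgfr4*), beside 26.3% and 25.9% of all genes. Between Day 2 and Day 10, 3 were higher and 7 lower, beside 39% and 38.2% of all genes. *Fgfr3* stood 5.09-fold higher at Day 10 than at Day 2 (log2 2.35 ± 0.11, adjusted p = 1.35e-07), *Fgfr2* 0.13 higher on the log2 scale (adjusted p = 0.0431) and *Fgfr1* 0.14 lower (adjusted p = 0.0265). The *Fgfr1* and *Fgfr2* calls are fragile. *Fgfr2* did not pass without Day 2 replicate A (0.13), Day 7 replicate A (0.14), Day 7 replicate B (0.14) or Day 10 replicate A (0.10), nor with another scaling (RLE, 0.12) or DESeq2 (0.12). *Fgfr1* did not pass without Day 7 replicate A (-0.13), Day 7 replicate B (-0.13), Day 10 replicate A (-0.17) or Day 10 replicate B (-0.09), nor without a filter on low counts (-0.12), and turned to 0.08 with thinned cells. The 3 comparisons share libraries and are not independent of each other.

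Around the receptors, 19 genes of the FGF family could be tested. Among them are *Fgf11* to *Fgf14*, which are not secreted ligands of these receptors. Some were near the floor, such as *Fgf3* at 0.402 and 0.506 CPM at Day 2, its highest day. Between Day 2 and Day 7, 4 rose and 10 fell (median log2 change -0.73, beside 0.01 over all genes). *Fgf8*, the main ligand of the limb ectodermal ridge, was counted with 156 and 262 UMIs in the Day 2 libraries, 8 and 19 at Day 7, then 2 and 3 at Day 10. The sums of limb ectoderm markers given above were also lower at Day 7 and Day 10, but *Fgf8* is itself in that list. Day 2 replicate B had more *Fgf8* UMIs than replicate A and the lower sum of these markers. *Fgf18*, a ligand of *Fgfr3* in the growth plate, was at 10.7 and 8.68 CPM, 3.13 and 3.53, and 3.79 and 3.75. Among the ligands that rose were *Fgf2* (log2 0.68) and *Fgf7* (log2 1.67), a mesenchymal ligand of the IIIb form of *Fgfr2*. *Fgf7* was at 5.66 and 5.52 CPM at Day 2, 17.8 and 17.7 at Day 7, then 34.7 and 39.3 at Day 10, each day above the one before without overlap, and rose again by 1.06 from Day 7 to Day 10.

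Among 21 co-receptors and modulators, 8 rose and 8 fell from Day 2 to Day 7 (median -0.06), and among 20 adaptor and ERK cascade genes 8 rose and 10 fell (median -0.11). These counts, like those of the other lists, are to be read against the 35.7% and 34.6% of all genes called higher and lower in that step, and those of the step from Day 7 to Day 10 against 26.3% and 25.9%. A count near its background is no result about the list. *Sdc4*, a heparan sulfate proteoglycan at the cell surface, went from 48.6 and 44.2 CPM at Day 2 to 205 and 203 at Day 7 and 196 and 203 at Day 10 (log2 2.14 for the first step). *Sdc3* and *Sdc2* of the same family rose by 1.16 and 0.89, while *Sulf1*, which removes sulfate groups from heparan sulfate, fell by 0.87. Within the cascade *Mapk3*, which encodes ERK1, rose by 0.85. *Fgfrl1*, a receptor-like protein without a kinase domain, went from 61.8 and 59.2 CPM to 106 and 107, and was at 107 and 94.9 at Day 10.

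Other feedback inhibitors went the way of the Sprouty genes and *Dusp6* in the first step: of 12 tested, 10 fell and 1 rose from Day 2 to Day 7 (median -0.44), and from Day 7 to Day 10 the count was 3 and 3, near the background. *Il17rd* (Sef), a membrane inhibitor of FGF receptors, was at 15.7 and 15.4 CPM at Day 2, 8.26 and 7.33 at Day 7, then 8.67 and 8.92 at Day 10 (log2 -0.99 for the first step). *Spred2* fell by 0.82, *Lrig3* by 0.63 and the ERK phosphatase *Dusp7* by 0.49. Of 15 genes that respond to ERK activity, 3 rose and 9 fell from Day 2 to Day 7 (median -0.37), and 9 rose and 1 fell from Day 7 to Day 10 (median 0.29). In the first step *Spsb1* fell by 1.19, *Etv1*, an ETS factor of the same subfamily as *Etv4* and *Etv5*, by 1.07 and the immediate early gene *Egr1* by 0.73, while its relative *Egr3* rose by 0.82. *Myc* (0.62), *Ccnd1* (0.54), *Cited2* (0.51) and *Ier3* (0.50) rose in the second.

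Genes induced when tissue is dissociated overlap with the ERK-response genes, and *Fos*, *Egr1* and *Ier2* are in both lists. The counts of these lists are thus not separate, here and within classes of cells. Of the dissociation-response genes, 8 of 11 tested rose and none fell from Day 7 to Day 10 (median 0.32), with *Junb* up by 0.56. In the step before, 6 of the 11 rose and 4 fell (median 0.41). The part of this response in the later rise of the feedback genes was not tested. Of 12 genes known to respond to *Fgfr3* in cartilage, 7 rose and 3 fell from Day 2 to Day 7 (median 0.48), among them *Npr2*, the receptor for C-type natriuretic peptide, up by 1.46, and the cell cycle inhibitor genes *Cdkn1a* (1.0) and *Rbl2* (0.76), while *Rbl1*, a relative of *Rbl2*, fell by 0.72. In the second step 3 rose and 5 fell (median -0.04), with *Cdkn1a* up by a further 0.84, *Cdkn1c* down by 1.29 and the chondrocyte factor *Sox9* down by 0.69.

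Cells were clustered per day, with 120 genes, these 10 among them, left out of the clustering, and a cluster was named where at least 3 listed markers of a class were enriched in it and at least 1 was among its 10 leading genes. Chondrocyte-like cells, led by *Acan*, *Hapln1*, *Matn1*, *Snorc* and *Col2a1*, were found at all 3 days, with 1247 and 923 cells at Day 2, 3079 and 2869 at Day 7, then 2594 and 2535 at Day 10. The names were rebuilt from the counts. Unnamed clusters held 6189 and 14227 cells at Day 2, 6829 and 5348 at Day 7, then 2853 and 2933 at Day 10, and 1 of the unnamed Day 7 clusters was led by genes that include *Sox9* and *Hapln1*. So the cells outside the chondrocyte-like class include some with cartilage genes.

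Within chondrocyte-like cells the receptor that led was replaced. *Fgfr2* was at 151 and 148 CPM at Day 2, 68.6 and 64.8 at Day 7, then 72.2 and 70.8 at Day 10. *Fgfr3* was at 53.8 and 63.2, 234 and 223, and 314 and 283 CPM. *Fgfr2* stood above *Fgfr3* in both Day 2 libraries and below it in all 4 later ones. Between Day 2 and Day 7 *Fgfr2* fell to 0.447 of its level (log2 -1.16 ± 0.06, adjusted p = 8.49e-11 over 16084 genes) and *Fgfr3* rose 3.90-fold (log2 1.97 ± 0.08, adjusted p = 1.05e-11). The sizes depend on which cells the class takes in: without integration the log2 changes were -0.40 for *Fgfr2* and 3.19 for *Fgfr3*, and at 2 times the resolution -0.69 and 2.77, all past the threshold. *Fgfr3* rose further, by 0.39, from Day 7 to Day 10 (SE 0.07, adjusted p = 0.000766), whereas *Fgfr2* did not pass (0.10, interval -0.02 to 0.22, adjusted p = 0.174). The sums of *Col2a1*, the main collagen gene of cartilage, moved in the same cells from 2133 and 2362 CPM at Day 2 to 16031 and 15916 at Day 7, then 20147 and 18964 at Day 10.

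In shares of receptor UMIs, *Fgfr2* held 48.6% and 45.55% in chondrocyte-like cells at Day 2, *Fgfr1* 30.7% and 31.05%, *Fgfr3* 17.4% and 19.5%, and *Fgfr4* 3.33% and 3.89%. At Day 7 *Fgfr3* held 58.1% and 58.0%, with *Fgfr1* at 21.2% and 20.9% and *Fgfr2* at 17.05% and 16.9%. At Day 10 *Fgfr3* held 66.8% and 64.4%. The leading receptor was thus *Fgfr2* at Day 2 and *Fgfr3* after it, in both libraries of each day, while in whole cultures the Day 2 leader was *Fgfr1*. The lead of *Fgfr2* over *Fgfr1* depends on how the class was drawn: without integration of the replicates *Fgfr1* held 44.6% and 43.6% and *Fgfr2* 43.7% and 42.4% at Day 2, and at 2 times the resolution *Fgfr1* held 42.8% and 42.6% and *Fgfr2* 43.0% and 41.1%. When the cells were clustered without integration of the replicates or at a higher resolution, the mean *Fgfr3* share of the Day 2 class was 10.7% and 12.6% in place of 18.4%.

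The other 2 receptors were lower than *Fgfr3* in these cells at Day 7 and Day 10. *Fgfr1* was at 95.1 and 101 CPM at Day 2, 85.1 and 80.3 at Day 7, then 74.1 and 76.9 at Day 10. It fell by 0.24 from Day 2 to Day 7 (SE 0.06, adjusted p = 0.00188), a call lost without Day 7 replicate B (-0.19), and did not pass from Day 7 to Day 10 (-0.13, interval -0.26 to -0.01, adjusted p = 0.0815), where it passed at -0.13 without either Day 2 library and at -0.21 without integration (adjusted p = 0.0168). *Fgfr4* was at 10.3 and 12.6, 14.8 and 16.1, and 10.1 and 8.78 CPM. It rose by 0.43 (SE 0.10, adjusted p = 0.00137), by 1.66 without integration and by 1.20 at 2 times the resolution, and then fell by 0.70 (SE 0.09, adjusted p = 3.02e-05). Its difference between Day 10 and Day 2 (log2 -0.27, adjusted p = 0.0331) was lost without Day 2 replicate B (-0.13) or Day 10 replicate B (-0.16), was -0.41 without Day 2 replicate A, and turned to 0.997 when the replicates were not integrated and to 0.48 at a higher resolution.

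As drawn here, the chondrocyte-like class held a large and growing part of the *Fgfr3* message of the cultures: 43.9% and 41.99% of all *Fgfr3* UMIs at Day 2, 71.3% and 72.2% at Day 7, then 84.8% and 83.1% at Day 10. Its part of all UMIs was 11.3% and 11.4%, 39.2% and 37.6%, and 24.6% and 23.4%. Its part of *Fgfr4* UMIs went the same way (32.5% and 33.2%, 62.7% and 65.1%, 73.7% and 71.2%), while that of *Fgfr2* UMIs was 25.9% and 25.1%, 32.8% and 30.6%, and 21.9% and 21.8%. Unnamed clusters, which include cells with cartilage genes, held 20.6% and 19.6% of *Fgfr3* UMIs and 25.5% and 23.4% of *Fgfr4* UMIs at Day 7. The growth after Day 7 thus rests on the class as drawn here. Of *Dusp6* UMIs the class held 10.2% and 10.3% at Day 2, 17.1% and 15.9% at Day 7, then 8.9% and 9.8% at Day 10. So on each day the class as drawn here held less of *Dusp6* than of all UMIs, by a small margin at Day 2.

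All 6 feedback genes fell within chondrocyte-like cells from Day 2 to Day 7. *Dusp6* was at 39.9 and 38.9 CPM at Day 2, 6.74 and 6.29 at Day 7, then 9.73 and 10.7 at Day 10. It fell to 0.165 of its Day 2 level (log2 -2.60 ± 0.08, adjusted p = 2.73e-13). *Spry4* was at 12.3 and 11.3 CPM, 1.59 and 1.46, and 3.26 and 4.04, and fell to 0.129 (log2 -2.95 ± 0.13, adjusted p = 3.26e-11). In both genes the Day 2 libraries stood above all later ones. *Etv4* was at 7.05 and 4.98 CPM, 1.07 and 0.861, and 1.26 and 1.19, and fell by 2.64 (SE 0.19, adjusted p = 8.74e-09).

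*Spry1* (5.88 and 5.38, 1.80 and 1.49, 3.79 and 4.90 CPM) fell by 1.77, *Etv5* (19.3 and 23.3, 8.43 and 7.86, 4.90 and 5.48 CPM) by 1.38 (log2 change -0.61 without integration) and *Spry2* (13.0 and 17.0, 6.01 and 5.84, 7.30 and 8.84 CPM) by 1.33. From Day 7 to Day 10 the genes parted. *Spry1* rose by 1.39 (SE 0.15, adjusted p = 5.63e-06), *Spry4* by 1.25 (SE 0.14, adjusted p = 8.18e-06) and *Dusp6* by 0.65 (SE 0.08, adjusted p = 1.83e-05). The class joined clusters 1 and 9 of Day 7 and clusters 0, 8, 9, 10 and 14 of Day 10. In the cluster with the most cells *Dusp6* was at 5.69 and 5.25 plain CPM at Day 7 (cluster 1) and 5.79 and 6.84 at Day 10 (cluster 0), while the other clusters held 9.46 to 10.4 CPM at Day 7 and 15.2 to 39.1 at Day 10. *Spry2* rose by 0.44 (SE 0.12, adjusted p = 0.00892), a call lost without Day 7 replicate B (0.42) or Day 10 replicate B (0.30), and without integration (0.24, adjusted p = 0.0841). *Etv4* did not pass (0.34, interval -0.14 to 0.81, adjusted p = 0.244), and *Etv5* fell by 0.65 (SE 0.10, adjusted p = 0.000171).

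In chondrocyte-like cells 2 of the 10 genes rose and 8 fell from Day 2 to Day 7, beside 35.1% and 35.2% of the 16084 genes tested. From Day 7 to Day 10, 5 rose and 2 fell, beside 21.2% and 20.2%. At Day 10 *Fgfr3* was above its Day 2 level (5.11-fold, log2 2.35) and the other 9 were below it, beside 38.1% higher and 36% lower among all genes, but *Fgfr4* was above it too without integration (0.997) and at 2 times the resolution (0.48), both past the threshold. The falls ranged from 0.27 for *Fgfr4* and 0.38 for *Spry1* (adjusted p = 0.0302) to 2.04 for *Etv5* and 2.30 for *Etv4*. The *Spry1* call was lost without Day 2 replicate A (-0.31) or Day 10 replicate A (-0.20).

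The other lists were counted in the same cells. Their counts are to be read against 35.1% higher and 35.2% lower of all genes in the step to Day 7. In the step to Day 10 these shares were 21.2% and 20.2%. Of the 12 other feedback inhibitors 10 fell and 1 rose from Day 2 to Day 7 (median -0.96), and of the ERK-response genes 9 fell and 2 rose (median -0.54). From Day 7 to Day 10, 8 ERK-response genes rose and 1 fell (median 0.24), and 8 dissociation-response genes rose and none fell (median 0.63). The genes responsive to *Fgfr3* counted 7 up and 5 down from Day 2 to Day 7 (median 0.29), the co-receptors and modulators 7 and 10 of 19 (median -0.21), the adaptor and ERK cascade genes 6 and 11 of 20 (median -0.22) and the FGF family genes 2 and 5 of 12 (median -0.29).

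Whether the change in chondrocyte-like cells differed from that in the other cells of the same libraries was tested with an interaction term. From Day 2 to Day 7 the largest differences were those of *Spry4* (-1.72 ± 0.12), *Etv4* (-1.69), *Fgfr2* (-1.50 ± 0.05), *Etv5* (-1.36), *Spry1* (-1.21) and *Dusp6* (-1.15 ± 0.08), all past the threshold and all with the more negative change in chondrocyte-like cells. In all other cells *Dusp6* went from 47.7 and 46.0 CPM to 18.1 and 17.1 and then to 31.0 and 29.1, so it was lower at Day 7 there too. In all other cells *Fgfr2* went the other way, from 58.3 and 59.9 CPM at Day 2 to 77.8 and 75.6 at Day 7. Its Day 10 values there were 80.7 and 75.1 CPM. Unnamed clusters made up 71.6% and 73.8% of all UMIs in the Day 2 libraries, but 23.5% and 22.5% in those of Day 7. Over this step *Fgfr2* fell by 0.44 within interzone-like cells and rose by 2.05 within the few myocyte-like cells. How far the changing mix of all other cells shaped their *Fgfr2* values was not tested. *Spry2* (-0.43) and *Fgfr1* (-0.38) also passed, and *Fgfr4* did not (-0.09, adjusted p = 0.544). Without integration the *Spry2* difference was -0.14 (adjusted p = 0.269) and no longer passed, and that of *Fgfr4* was 2.25 and passed. Of the 10 genes, none had the higher and 9 the lower change in chondrocyte-like cells, beside 24.4% and 22.5% of the 18294 genes tested.

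The change of *Fgfr3* from Day 2 to Day 7 was then set against that in all other cells. There it went from 9.29 and 11.9 CPM to 52.1 and 44.1, and the difference of the changes was -0.19 (SE 0.07, adjusted p = 0.0318). This call was lost without Day 2 replicate A (-0.12) or Day 7 replicate A (-0.09), was -0.28 without Day 7 replicate B, and turned to 2.63 when cells were clustered without integration. Most *Fgfr3* UMIs of the other cells at Day 7 were in the unnamed clusters, which had 99.2 and 87.1 plain CPM of *Fgfr3* beside 7602 and 5865 CPM of *Col2a1*, while contractile, interzone-like and tenocyte-like cells had 20.1 to 27.0 CPM of *Fgfr3*. From Day 7 to Day 10 *Fgfr3* in all other cells went down to 17.6 and 17.1 CPM while it rose in chondrocyte-like cells, a difference of 1.88 (SE 0.06, adjusted p = 7.07e-11). *Fgfr4* parted likewise (1.42 ± 0.12), from 4.87 and 4.45 CPM to 1.13 and 1.05 in all other cells. The sizes of the *Fgfr3* and *Fgfr4* differences rest on the class as drawn here, since all other cells include the unnamed clusters of Day 7. *Spry4* (0.58 ± 0.12, adjusted p = 0.00195; 0.30 and adjusted p = 0.0787 without integration) and *Fgfr1* (0.16 ± 0.05, adjusted p = 0.0265) had the higher and *Etv5* (-0.51 ± 0.09) the lower change in chondrocyte-like cells, which makes 4 and 1 of the 10, beside 21.3% and 20.3% of all genes. The *Fgfr1* call was lost without Day 7 replicate A (0.17), Day 7 replicate B (0.13) or Day 10 replicate B (0.07), or without integration (0.094). *Dusp6* gained a call without integration (-0.31, adjusted p = 0.0279) and *Fgfr2* without Day 10 replicate A (0.13, adjusted p = 0.0476).

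Over the whole span from Day 2 to Day 10 all 10 genes differed, 2 with the higher change in chondrocyte-like cells (*Fgfr3*, 1.70, and *Fgfr4*, 1.33) and 8 with the lower, beside 25.4% and 22.5% of all genes. The 8 ranged from *Fgfr1* (-0.23) and *Spry2* (-0.33) to *Etv4* (-1.66) and *Etv5* (-1.87). The *Spry2* call was lost without Day 10 replicate A (-0.23) and without integration (-0.19). The sizes for *Fgfr3* and *Fgfr4* rest on the class as drawn here. Without integration the change of *Fgfr4* within the class was 0.997, and the mean *Fgfr3* share of its Day 2 cells was lower, at 10.7%.

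**Figure D3:**
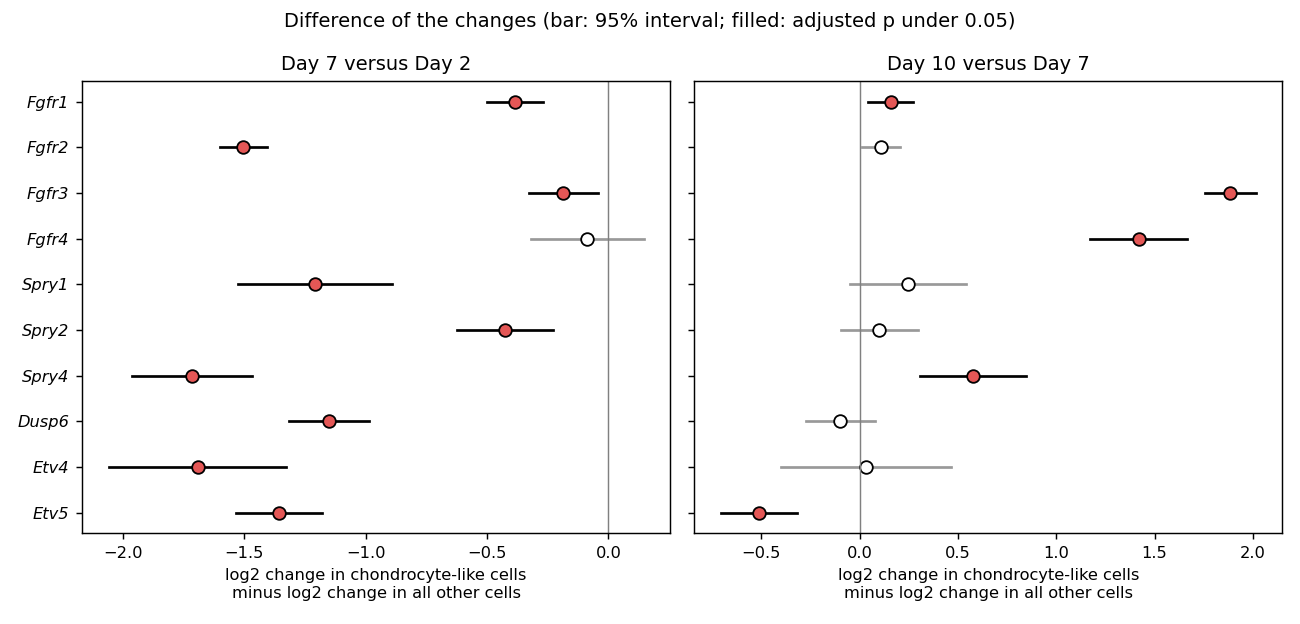
Difference of the log2 changes between days (horizontal axes, change in chondrocyte-like cells minus change in all other cells of the same libraries) for each of the 10 genes, with 95% intervals as bars and filled points where the adjusted p is under 0.05. In the step to Day 7 all filled points lie below 0, down to -1.72 for *Spry4*, and in the step to Day 10 *Fgfr3* (1.88) and *Fgfr4* (1.42) lie farthest above it.

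Joint interzone-like cells, the *Gdf5*-marked cells between cartilage elements, could be compared between Day 2 and Day 7. *Fgfr1* was their leading receptor on both days, with 53.4% of receptor UMIs at Day 2 and 54.5% at Day 7 in replicate A. Its level was 167 and 173 CPM at Day 2 and 157 and 152 at Day 7, and the change did not pass (-0.14, adjusted p = 0.0640), although it passed at -0.17 without Day 2 replicate A. *Fgfr2* fell by 0.44, from 127 and 123 to 97.9 and 87.4 CPM. *Fgfr3* rose by 0.62 (SE 0.13, adjusted p = 0.000394), from 14.8 and 19.7 to 29.1 and 23.7 CPM, and by 0.41 without Day 2 replicate A. *Col2a1* in the same cells went from 753 and 816 CPM to 2097 and 1606, and its part in the *Fgfr3* value was not tested.

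Of the feedback genes of interzone-like cells 5 fell, though *Dusp6* stayed well above its level in chondrocyte-like cells. *Dusp6* went from 57.4 and 55.1 to 37.3 and 34.3 CPM (log2 -0.66) and *Spry4* from 5.34 and 4.82 to 1.97 and 1.78 CPM (log2 -1.44). *Spry2* fell by 0.52, *Spry1* by 0.47 and *Etv4* by 1.18 (adjusted p = 0.0135). The *Spry1* call was lost without Day 2 replicate A (-0.28) or Day 7 replicate A (-0.38), and the *Etv4* call without Day 2 replicate B (-0.90) or Day 7 replicate B (-0.59), with -1.97 without Day 7 replicate A. *Etv5* did not pass (0.22), with 0.45 and a call without Day 2 replicate B and -0.04 without Day 2 replicate A. In all, 1 of the 10 genes rose and 6 fell, beside 33.1% and 32% of 13899 genes. The other feedback inhibitors had 1 risen and 9 fallen of 11 (median -0.53). The ERK-response genes went the other way, with 9 of 15 risen and 3 fallen (median 0.39). All 11 dissociation-response genes rose (median 1.502), *Fos*, *Egr1* and *Ier2* being in both lists, and their part in these values was not tested.

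Tenocyte-like cells, led by *Tnmd* and *Scx*, could be compared between Day 7 and Day 10, and here all 4 receptors fell, of which *Fgfr2* was at 0.036 (adjusted p = 0.660) when cells were clustered at 2 times the resolution. *Fgfr1* went from 145 and 135 to 86.2 and 81.0 CPM (log2 -0.74) and *Fgfr2* from 99.3 and 94.4 to 68.1 and 58.5 CPM (log2 -0.61). *Fgfr3* went from 22.3 and 20.7 to 7.99 and 7.28 CPM (log2 -1.49), and *Fgfr4* from 2.68 and 2.48 to 0.572 and 0.260 CPM (log2 -2.58). The Day 10 values of *Fgfr4* rest on 21 and 8 UMIs. No receptor overlapped between the days, but the share of all genes without overlap was not counted. In that step 31.2% and 30.8% of all genes tested were called higher and lower. *Fgfr1* remained the leading receptor, with 53.9% and 53.4% of receptor UMIs at Day 7 and 52.9% and 55.1% at Day 10. *Col2a1* in these cells went from 1608 and 1559 CPM to 276 and 321, and its part in the fall of *Fgfr3* was not tested.

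The feedback genes of tenocyte-like cells went up in that step or did not pass. *Spry1* rose by 1.43, from 9.59 and 10.3 to 25.05 and 28.8 CPM, and *Etv4* by 2.03, from 0.894 and 1.34 to 4.25 and 5.07 CPM. *Dusp6* rose by 0.41, from 28.5 and 26.6 to 39.0 and 34.0 CPM. *Etv5* rose by 0.33 (adjusted p = 0.0496), a call lost without Day 7 replicate A (0.34), Day 7 replicate B (0.33) or Day 10 replicate B (0.23). *Spry2* (-0.24) and *Spry4* (-0.26) did not pass, though *Spry4* did without Day 7 replicate B (-0.51) or Day 10 replicate B (-0.36) and *Spry2* without Day 10 replicate A (-0.30). *Spry4* was at 0.0042 without Day 7 replicate A and passed in the opposite direction, at 0.44 (adjusted p = 0.0207), at 2 times the resolution. So 4 of the 10 genes rose and 4 fell, beside 31.2% and 30.8% of 13882 genes. Here 3 of 15 ERK-response genes rose and 7 fell (median -0.20), and 2 of 11 dissociation-response genes rose and 6 fell (median -0.39).

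Contractile mesenchyme-like cells, led by smooth muscle genes such as *Acta2* and *Tagln*, also had all 4 receptors fall between Day 7 and Day 10. *Fgfr1* went from 80.2 and 79.4 to 55.1 and 54.5 CPM (log2 -0.54), *Fgfr2* from 56.5 and 55.9 to 27.1 and 19.9 CPM (log2 -1.25), *Fgfr3* from 22.9 and 20.1 to 8.53 and 5.88 CPM (log2 -1.56), and *Fgfr4* from 2.10 and 1.57 to 0.363 and 0.149 CPM (log2 -2.78). The Day 10 values of *Fgfr4* rest on 15 and 5 UMIs. Since *Fgfr1* fell least, its share of receptor UMIs went from 49.6% and 50.6% to 60.5% and 67.8%. *Dusp6* rose from 12.1 and 11.6 to 21.1 and 19.7 CPM (log2 0.79), *Spry1* rose by 0.64 and *Etv4* by 0.54, while *Etv5* fell by 0.66. *Spry4* rose by 0.31 (adjusted p = 0.0108), a call lost without Day 7 replicate A (0.29) or Day 7 replicate B (0.34), and *Spry2* did not pass (0.21), though it did at 0.34 without Day 10 replicate B. At 2 times the resolution *Spry4* was at -0.10 and *Etv4* at -0.084, neither past the threshold. *Col2a1* in these cells went from 1534 and 1465 CPM to 376 and 295, and its part in the fall of *Fgfr3* was not tested. Of the ERK-response genes 11 of 15 rose and 2 fell (median 0.77), and of the dissociation-response genes 8 of 11 rose and 1 fell (median 0.66). That is 4 risen and 5 fallen of the 10 genes, beside 26.3% and 25.7% of 14727 genes.

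Myocyte-like cells were few at Day 7 (88 and 77) and shallow, the median cell having 1598 and 1193 UMIs. *Fgfr4* held 35.9% and 50.7% of their receptor UMIs at Day 2, behind *Fgfr1* in replicate A (267 against 208 UMIs) and ahead of it in replicate B (130 against 181). *Fgfr3* went from 1.90 and 1.49 CPM at Day 2 to 56.2 and 52.6 at Day 7 (log2 4.98 ± 0.36, adjusted p = 3.78e-05), which at Day 7 rests on 45 and 11 UMIs, and *Fgfr2* from 8.59 and 5.37 to 29.999 and 28.7 CPM (log2 2.05, adjusted p = 0.00635). The *Fgfr2* call was lost without Day 2 replicate B (1.84) or Day 7 replicate A (1.96). *Col2a1*, a cartilage gene, went in the same cells from 97.0 and 52.1 to 4365 and 2092 CPM, and its part in the *Fgfr3* value was not tested. *Fgfr3* and *Fgfr2* were the 2 genes that passed of the 10, both higher, beside 9.79% higher and 8.14% lower of 10950 genes.

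Across the named classes of a single day, levels are given in plain CPM of each class (UMIs of the gene relative to all UMIs of the class, not scaled by TMM). A class was drawn from the same cells, so classes were ordered and not tested. At Day 2 *Fgfr1* was highest in interzone-like cells (182 and 189 CPM), then in chondrocyte-like (115 and 124), interdigital mesenchyme-like (103 and 90.5) and myocyte-like cells (27.9 and 19.5), and no neighbours in this order overlapped. *Fgfr2* was highest in chondrocyte-like cells (183 and 181 CPM), followed by interzone-like (139 and 135), interdigital (27.9 and 22.0) and myocyte-like cells (9.002 and 5.41), again without overlap. The interdigital cells, which carry *Msx1* and *Aldh1a2*, thus took 75.1% and 76.4% of their receptor UMIs from *Fgfr1*. Unnamed cluster 7 of Day 2 (456 and 744 cells) had *Fgfr1* at 237 and 166 CPM and *Fgfr2* at 196 and 176. High levels of these receptors are therefore not particular to the named classes.

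*Fgfr3* ranged over classes more widely than *Fgfr1*. At Day 2 it was at 65.3 and 77.7 CPM in chondrocyte-like, 16.2 and 21.6 in interzone-like, 5.64 and 5.32 in interdigital and 1.99 and 1.502 in myocyte-like cells, with 41.0 times between the highest and the lowest class mean. Unnamed cluster 7 of that day was near the chondrocyte-like cells, at 60.0 and 78.4 CPM. At Day 7 chondrocyte-like cells were at 205 and 192 CPM and the range narrowed to 9.17 times. The replicates of interzone-like and contractile cells overlapped at that day, as did those of contractile and tenocyte-like cells. At Day 10 chondrocyte-like cells were at 292 and 269 CPM, perichondrium-like cells at 49.7 and 52.6, osteoblast-like cells at 43.2 and 36.0 and articular-like cells at 13.5 and 12.1. Immune-like cells were at 11.3 and 7.71, tenocyte-like cells at 7.94 and 7.21 and contractile cells at 8.46 and 5.79, with 39.4 times between highest and lowest.

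Since droplets can take up free RNA, *Fgfr3* in each class was set beside *Col2a1*, one of the most abundant cartilage transcripts. At Day 7 chondrocyte-like cells had 12.8 and 12.1 *Fgfr3* UMIs per 1000 *Col2a1* UMIs. The ratio was 15.3 and 13.8 in contractile, 12.9 and 13.3 in interzone-like, 13.9 and 13.4 in tenocyte-like and 11.1 and 9.8 in immune-like cells (28 and 43 cells), and 11.8 and 26.0 in the few myocyte-like cells. Immune cells, which do not make cartilage collagen, had 2550 and 1072 CPM of *Col2a1* at Day 7. So outside the chondrocyte-like class *Fgfr3* stood to *Col2a1* at Day 7 in nearly the ratio found within it, and the part of free RNA in the Day 7 *Fgfr3* values of the other classes, and in the values of all other cells above, was not tested. The part of free RNA in *Fgfr4* values was not tested either, with 62.7% and 65.1% of *Fgfr4* UMIs at Day 7 in chondrocyte-like cells.

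The ratio spread more on the other days. At Day 2 it was 30.6 and 32.9 in chondrocyte-like, 21.5 and 26.5 in interzone-like, 45.1 and 54.8 in interdigital and 20.5 and 28.8 in myocyte-like cells. At Day 10 it was 14.5 and 14.2 in chondrocyte-like, 15.6 and 16.8 in immune-like, 17.4 and 16.3 in osteoblast-like, 20.5 and 26.8 in perichondrium-like and 27.3 and 23.1 in articular-like cells. *Fgfr3* per *Col2a1* UMI was thus lower in chondrocyte-like cells at Day 7 and Day 10 than at Day 2, while both transcripts were higher per cell RNA.

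**Figure D4:**
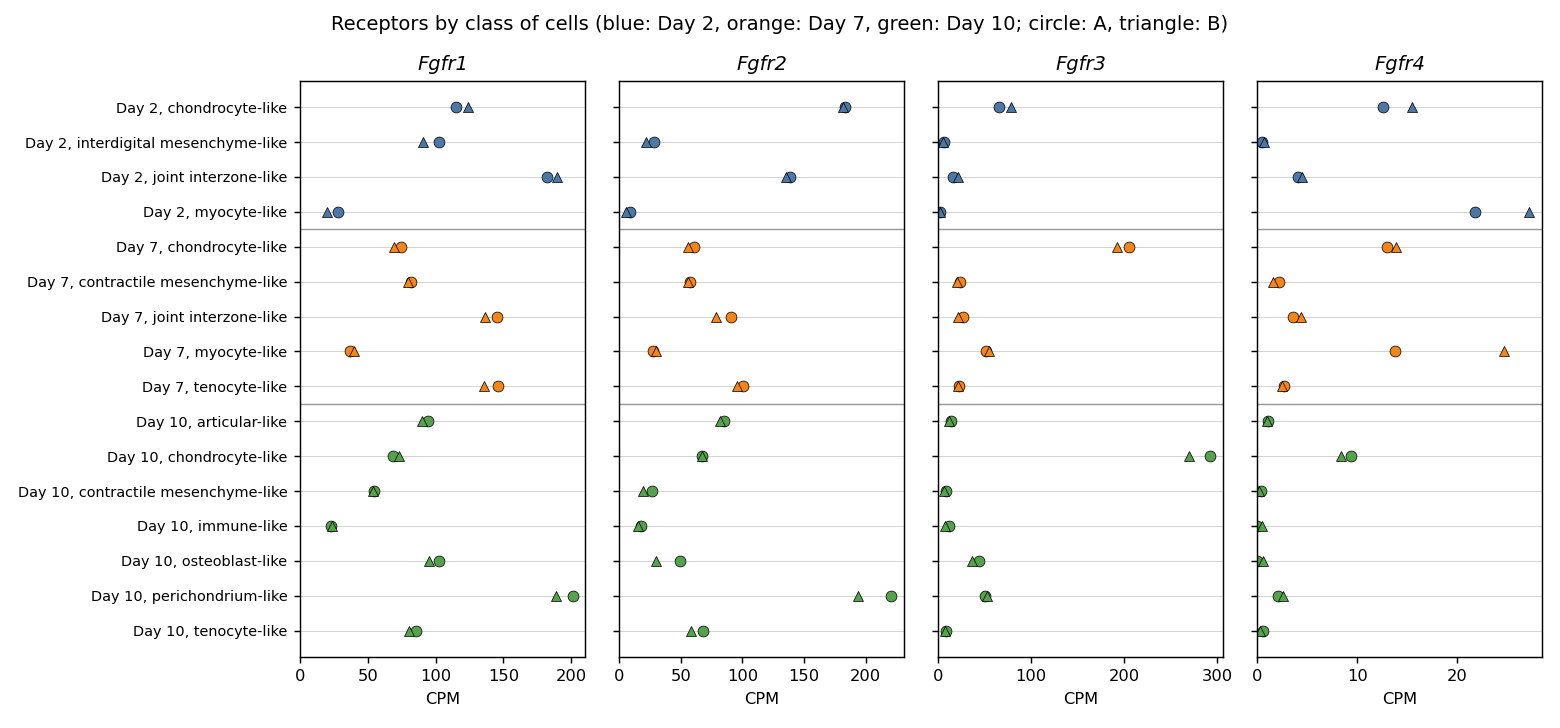
CPM of the 4 receptors (horizontal axes) in each named class at each day, with replicate A as circles and replicate B as triangles. Among these classes *Fgfr3* is highest in chondrocyte-like cells at every day, from 65.3 and 77.7 CPM at Day 2 to 292 and 269 at Day 10, and *Fgfr1* is highest in interzone-like cells at Day 2.

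In the other named classes of Day 7 and Day 10 *Fgfr1* or *Fgfr2* held the largest share, except in the few myocyte-like cells of Day 7, where *Fgfr3* did (39.8% and 36.7%). That share rests on 45 and 11 *Fgfr3* UMIs, in cells with 4365 and 2092 CPM of *Col2a1*. The part of free RNA in it was not tested. At Day 7 *Fgfr1* was at 146 and 136 CPM in tenocyte-like and 145 and 137 in interzone-like cells, which overlapped, and at 74.8 and 69.3 in chondrocyte-like cells. At Day 10 it was highest in perichondrium-like cells (201 and 189 CPM), where *Fgfr2* was also highest (220.5 and 193 CPM). The perichondrium-like class was shallow (median depth 5203 and 4107 UMIs) and was led by *Lars2*, which was also among the leading genes of an unnamed shallow Day 7 cluster. Unnamed cluster 6 of Day 10 was near this class, with *Fgfr1* at 183 and 174 CPM and *Fgfr2* at 208 and 218. *Fgfr2* held 46.6% and 44.2% of the receptor UMIs of perichondrium-like cells. In articular-like cells *Fgfr1* led in both libraries, at 94.2 and 90.3 CPM against 84.8 and 82.1 for *Fgfr2* (48.7% and 43.8% of receptor UMIs in replicate A). Osteoblast-like cells (84 and 105 cells) had 22.2% and 22.3% of receptor UMIs from *Fgfr3*.

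Summed, the 6 feedback genes were lowest in chondrocyte-like cells at Day 7 and Day 10, while at Day 2 chondrocyte-like (118 and 124 CPM), interzone-like (120 and 123) and myocyte-like cells (132 and 119) overlapped. The sum was 224 and 188 CPM in interdigital cells at Day 2, the highest of that day, where *Dusp6* was at 102 and 75.1 CPM and *Spry1* at 36.4 and 26.0. In chondrocyte-like cells it was 22.5 and 20.5 CPM at Day 7, then 28.1 and 33.5 at Day 10. Osteoblast-like cells of Day 10 were close to this, at 34.7 and 34.9 CPM. Their *Dusp6* was lower still, at 3.47 and 5.33 CPM against 9.04 and 10.2 in chondrocyte-like cells. At Day 10 the sum was highest, among the named classes, in the shallow perichondrium-like cells (145 and 131 CPM), with *Dusp6* at 54.2 and 55.3 CPM. Unnamed cluster 6 of that day had *Dusp6* at 57.1 and 55.7 CPM, so this high level is not particular to the class. Among the named classes *Spry2* was highest in myocyte-like cells at Day 2 (50.9 and 52.4 CPM), and *Etv4* in contractile cells at Day 7 (10.3 and 10.7 CPM) and Day 10 (15.8 and 13.9 CPM). Unnamed cluster 8 of Day 2 had *Spry2* at 56.2 CPM in replicate B. Unnamed cluster 12 of Day 10 had *Etv4* at 20.9 and 14.2 CPM. *Etv5* was highest in immune-like cells at Day 10 (30.6 and 30.8 CPM), and *Spry1* in tenocyte-like (24.9 and 28.5 CPM) and articular-like cells (24.9 and 28.1 CPM), which overlapped. Unnamed cluster 3 of Day 10 was level with these 2 classes in *Spry1*, at 26.4 and 27.4 CPM. The feedback genes therefore did not share a single order over the classes.

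**Figure D5:**
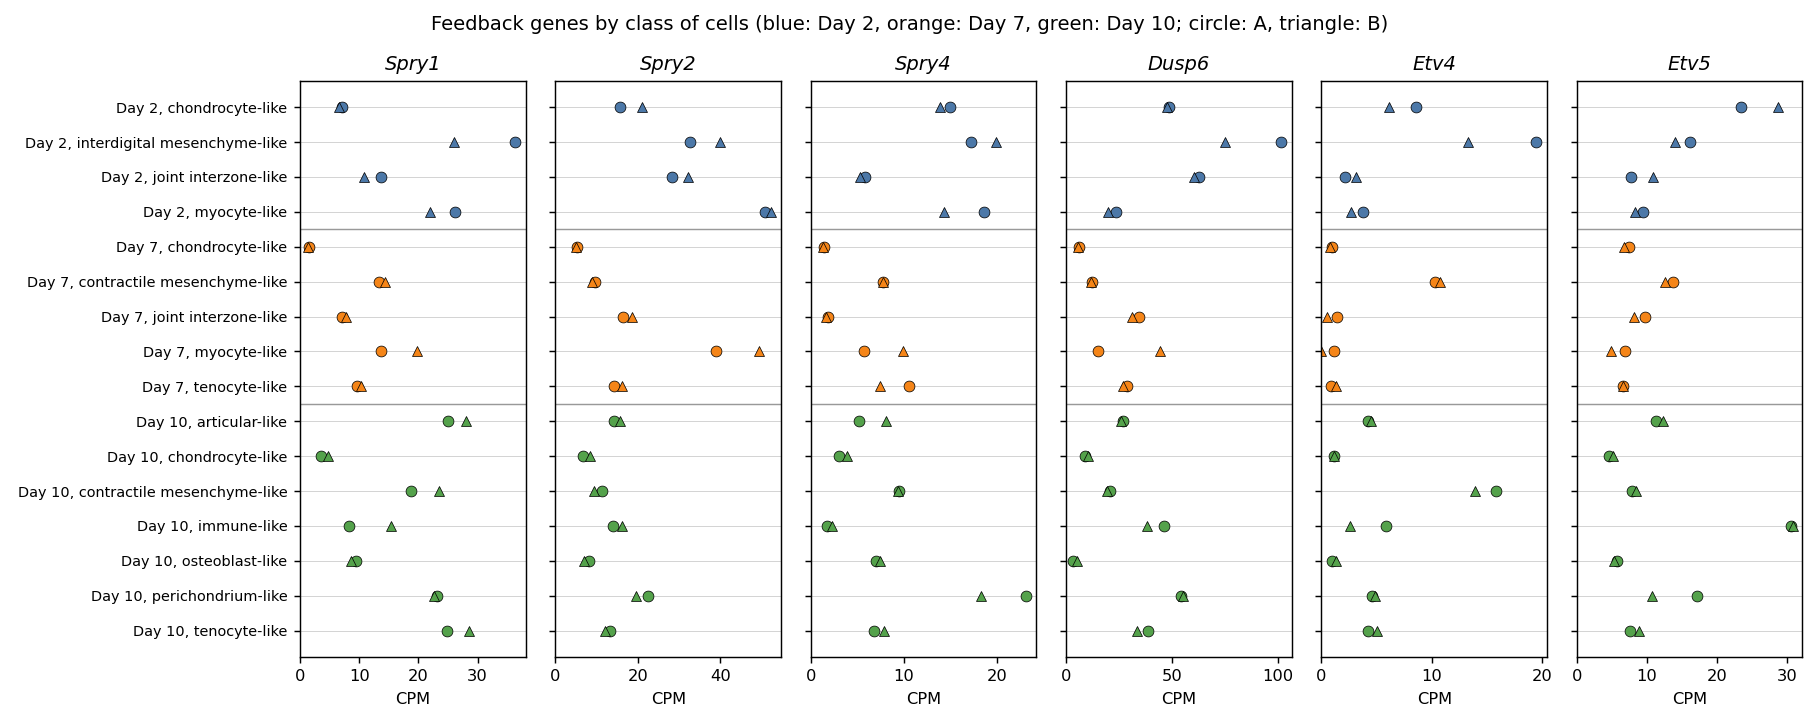
CPM of the 6 feedback genes (horizontal axes) in each named class at each day, with replicate A as circles and replicate B as triangles. Chondrocyte-like cells at Day 7 lie at the low end for *Spry1*, *Spry2*, *Spry4* and *Dusp6* (*Dusp6* 5.92 and 5.43 CPM), and interdigital cells at Day 2 have the highest *Dusp6* (102 and 75.1 CPM).

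Single cells were compared after each was thinned to 3000 UMIs, which left 8802 to 9653 cells per library, since the share of cells with a UMI follows depth. *Fgfr3* was detected in 5.34% and 5.92% of cells at Day 2, 25.2% and 21.7% at Day 7, then 19.4% and 18.9% at Day 10 (unthinned, 21.2% and 12.7%, 43.2% and 40.4%, 41.6% and 39.3%). In chondrocyte-like cells the shares were 16.0% and 18.7%, 43.5% and 41.0%, and 55.2% and 53.5% (unthinned, 56.4% and 66.9%, 89.6% and 88.4%, 87.7% and 83.8%). Immune-like cells of Day 10, taken as the background, had *Fgfr3* in 2.54% and 0% of 118 and 163 cells (unthinned, 16.95% and 12.9%), at a median of 21232 and 21616 UMIs against 21469 and 15401 in chondrocyte-like cells. The chondrocyte-like shares of Day 10 stood above this background. At 3000 UMIs per cell, 0 of 163 cells allows a share of cells with a UMI of up to 1.84%, which does not limit the share that express the gene. Immune-like cells were too few for such a share at Day 7, where they had 28.4 and 10.5 CPM of *Fgfr3*, and none were named at Day 2, so no background stands beside the shares of those days.

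*Fgfr2* was detected in 42.2% and 38.9% of thinned chondrocyte-like cells at Day 2, 19.4% and 17.5% at Day 7, then 25.1% and 23.8% at Day 10, and *Dusp6* in 13.15% and 13.2%, 1.89% and 2.10%, and 4.78% and 4.71%. Unthinned, the *Dusp6* shares were 48.7% and 52.1%, 12.5% and 11.502%, and 17.0% and 16.7%. *Dusp6* was found in 11.9% and 11.04% of thinned immune-like cells at Day 10, which is above its share in chondrocyte-like cells of Day 7 and Day 10.

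*Fgfr2* and *Fgfr3* were found together in 7.06% and 8.46% of thinned chondrocyte-like cells at Day 2, where the product of their separate shares gives 6.77% and 7.26%. The values were 9.51% and 7.91% at Day 7 (product 8.43% and 7.15%) and 13.8% and 13.1% at Day 10 (product 13.9% and 12.75%). At this depth the receptors were met in the same cells about as often as their separate shares give, or somewhat more often. No background was set beside the *Fgfr2* shares. A UMI of at least 2 receptors was seen in 21.0% and 23.5%, 21.3% and 19.35%, and 28.2% and 27.2% of these cells. Doublets were not removed and add to such counts.

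The genes whose levels were most like each receptor were ranked by Pearson's r of log2(CPM + 1) over 32 sums, each of a named class in a library, among 8284 genes. The sums share libraries, depth and, through it, free RNA, so r is a description. For *Fgfr3* they were *Col2a1* (0.97), *Susd5* (0.96) and *Col9a2* (0.96), of which *Col2a1* and *Col9a2* encode cartilage collagens. For *Fgfr1* they were *Dtx3* (0.93), *Mxd4* (0.93) and *Ptprs* (0.915), for *Fgfr2* *Foxc1* (0.91), *Mbnl2* (0.91) and *Copa* (0.88), and for *Fgfr4* *Usp29* (0.845), *Klhl13* (0.83) and *Baiap2l1* (0.82). Over the same sums the 6 feedback genes together had an r of -0.65 with *Fgfr3*, 0.01 with *Fgfr1*, -0.07 with *Fgfr2* and -0.13 with *Fgfr4*. Taken singly, the feedback genes had an r with *Fgfr3* from -0.78 (*Spry1*) to -0.27 (*Etv5*). Between pairs of feedback genes r ranged from 0.08 (*Spry2* and *Etv4*) to 0.67 (*Spry1* and *Spry4*) and 0.675 (*Spry2* and *Dusp6*).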

How the data were processed

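RNA of single cells was captured with the 10x Genomics 3′ GEX v3.1 kit. Reads were processed by the authors with Cell Ranger 6.1.2 and STAR against GRCm38, and Seurat 4.1.0 is also named in the submitters' processing notes. The deposited matrices hold raw UMI counts per gene and barcode, not normalised, 1 library each, before the study's filters on cells. The study's limits were applied per library (at least 800 to 1000 UMIs, 200 to 7500 genes, at most 25% to 40% mitochondrial and 35% to 40% ribosomal UMIs), and no doublet caller was run.

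UMIs of the kept cells were summed per library, and per class and library where a class had at least 50 cells, and compared with edgeR 4.0.16 (R 4.3.3; filterByExpr, TMM, quasi-likelihood test, Benjamini-Hochberg over all genes tested, called at an adjusted p under 0.05). All days of a fit shared 1 estimate of the spread. The interaction fit used library as a block. Clusters were made per day with Seurat 5.3.0 (SCTransform, integrated replicates, 3000 features, 120 listed genes left out, resolution 0.5, 0.5 and 0.7). A cluster was named where at least 3 listed markers were enriched (log2 fold over 0.5 in each library with 10 or more cells, a UMI in at least 25% of cells). It was left unnamed where another class led, where none of its markers was among its 10 leading genes, or where over 80% of it came from 1 library. The naming rule was set after the leading genes had been seen. Shares of cells used thinned counts (3000 UMIs per cell, Python 3.11.15), with alternatives at 1000 and 5000. Intervals of shares are exact at 95%, and these and the limit of 3 counts cover counting error only.

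The 10 genes and the pathway lists were chosen with earlier results of these data known. The text names the 10 genes, up to 4 called genes of a list with the largest change and a mean of at least 10 CPM, and the 3 genes most correlated with each receptor. *Fgf8*, *Fgf18*, *Fgfrl1* and the *Fgfr3* to *Col2a1* ratio were added after their values were seen. Scripts were tested on simulated counts. Replicate letters A and B were not treated as a pairing, since the labels do not say whether libraries of the same letter share a seeding. Deviations of libraries with the same letter correlated at -0.0164, -0.00765 and -0.0574, which does not settle this. Alternatives were RLE scaling, DESeq2 1.42.0, no filter on low counts, all barcodes, thinned cells, a replicate block, leaving out each library, clustering without integration and 2 times the resolution.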

Additional observations from a re-analysis of the deposited data

Results flagged for a closer look

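For 24 values the change between days in chondrocyte-like cells differed from the change in all other cells of the same libraries, by the interaction term of edgeR's quasi-likelihood test (adjusted p under 0.05). Each is a difference of log2 fold changes, chondrocyte-like minus all other cells. How the classes were drawn moves some of them: without integration of the replicates the *Fgfr3* value from Day 2 to Day 7 was 2.63 (past the threshold with the opposite sign), and *Spry2* from Day 2 to Day 7 (-0.14) and from Day 2 to Day 10 (-0.19) and *Fgfr1* (0.094) and *Spry4* (0.30) from Day 7 to Day 10 did not pass.

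From Day 2 to Day 7 the differences were -0.38 for *Fgfr1*, -1.50 for *Fgfr2*, -0.19 for *Fgfr3*, -1.21 for *Spry1*, -0.43 for *Spry2*, -1.72 for *Spry4*, -1.15 for *Dusp6*, -1.69 for *Etv4* and -1.36 for *Etv5*. From Day 7 to Day 10 they were 0.16 for *Fgfr1*, 1.88 for *Fgfr3*, 1.42 for *Fgfr4*, 0.58 for *Spry4* and -0.51 for *Etv5*. From Day 2 to Day 10 they were -0.23 for *Fgfr1*, -1.40 for *Fgfr2*, 1.70 for *Fgfr3*, 1.33 for *Fgfr4*, -0.96 for *Spry1*, -0.33 for *Spry2*, -1.14 for *Spry4*, -1.25 for *Dusp6*, -1.66 for *Etv4* and -1.87 for *Etv5*. The *Fgfr3* value of the first step did not pass without Day 2 replicate A (-0.12) or Day 7 replicate A (-0.09). The 3 spans share libraries.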

How the results depend on the processing

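Of 1105 log2 changes of the 10 genes recomputed under another setting, 1013 kept direction and side of the threshold, 55 lost the call, 13 gained one and 24 changed sign, and where no cause is given, the cause was not tested. Thinned cells gave 0.081 for *Fgfr1* from Day 2 to Day 10 in whole cultures, and from Day 7 to Day 10 5884 called genes in place of 9913 and 5 of the 10 genes in place of 8, with mean *Fgfr3* shares of receptor UMIs of 32.2% at Day 7 (38.2% unthinned) and 32.1% at Day 10 (33.5%). Without integration, chondrocyte-like cells had -0.032 for *Fgfr2* and -0.034 for *Etv4* from Day 7 to Day 10 and 0.997 for *Fgfr4* from Day 2 to Day 10, and *Dusp6* in myocyte-like cells had -0.024. The interaction values were then 2.63 for *Fgfr3* and 2.25 for *Fgfr4* from Day 2 to Day 7, and -0.074 for *Fgfr2*, -0.0053 for *Spry1*, -0.051 for *Spry2* and -0.15 for *Etv4* from Day 7 to Day 10. At 2 times the resolution *Fgfr4* from Day 2 to Day 10 was 0.48 in chondrocyte-like cells, *Spry4* -0.10 and *Etv4* -0.084 in contractile cells, and *Fgfr2* 0.036, *Spry2* 0.038 and *Spry4* 0.44 (past the threshold) in tenocyte-like cells. The mean *Fgfr3* share in chondrocyte-like cells without integration and at that resolution was 10.7% and 12.6% at Day 2 (18.4%), and 55.1% and 57.4% at Day 7 (58.1%). Cells with an *Fgfr3* UMI at 1000 UMIs, 5000 UMIs and unthinned were 2.23%, 8.64% and 17.0% at Day 2, then 10.2%, 31.3% and 41.8% at Day 7 and lastly 8.65%, 23.7% and 40.5% at Day 10.

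Leaving out each library in turn gave 4301 to 7255 called genes from Day 7 to Day 10 in chondrocyte-like cells (6660 with all, fewest without either Day 7 library), 4540 to 7860 in contractile cells (7664, fewest without Day 7 replicate A), and 479 to 2903 from Day 2 to Day 7 in myocyte-like cells (1963, fewest without either Day 2 library), with 1 to 2 of the 10 genes (1 without Day 2 replicate B or Day 7 replicate A). Log2 changes ranged from -0.037 to 0.45 for *Etv5* in interzone-like cells, -0.40 to 0.98 for *Dusp6* in myocyte-like cells and -0.51 to 0.0042 for *Spry4* in tenocyte-like cells. Interaction values ranged from -0.23 to 0.050 for *Fgfr4* from Day 2 to Day 7, and from Day 7 to Day 10 from -0.12 to 0.20 for *Etv4*, -0.22 to 0.0015 for *Dusp6* and -0.029 to 0.20 for *Spry2*. With the replicate block 13135, 9607 and 14524 genes were called in whole cultures from Day 2 to Day 7, Day 7 to Day 10 and Day 2 to Day 10 (13342, 9913 and 14670 without it), with 7, 8 and 10 of the 10 genes. The block moved only the call of *Etv5* from Day 2 to Day 7 (-0.28, adjusted p = 0.0558), and letters were not treated as a pairing. Depth limits *Fgfr4*, *Etv4* and *Spry4*, which are under 3 CPM in several classes.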
